A study of Arabidopsis thaliana with 12 samples.

Results

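Cytochrome P450s, UDP-glycosyltransferases (UGTs) and glutathione transferases (GSTs) are 3 enzyme superfamilies that often act in sequence on small molecules. P450s are membrane-bound haem enzymes that oxidise a substrate, UGTs attach a sugar from a UDP-sugar, and GSTs attach glutathione or carry the substrate. In plants they make and inactivate hormones, build phenylpropanoids and flavonoids, and detoxify foreign compounds, and the conjugates are often moved into the vacuole. Members were the probe sets that the array annotation pairs with exactly 1 gene whose symbol begins with CYP plus a family number and letter, with UGT or with GST. The rule set aside 1 UGT symbol and the loci AT4G00005 to AT4G02999. This gave 25 genes, each with 1 probe set, out of 3602 genes with a probe set of their own. They were 3 P450s, all of family CYP71, 19 UGTs of families 71, 72, 73, 74, 80, 84, 85 and 87, and 3 GSTs, 1 of the phi class (GSTF) and 2 of the plant-specific tau class (GSTU).

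The measurements are deposited log2 values from 12 one-colour arrays of shoot apex RNA of Arabidopsis thaliana, with 4 genotypes sampled once on 3 days each. All plants were in the Col-0 background, raised at 21 °C for 30 days in short days of 9 h light (15 h dark), then given long days of 16 h light (8 h dark), with harvests on day 0, 2 and 4 of long days. fri(Col)-FLC(Col) is Col-0 wild type, with its inactive FRIGIDA (FRI) allele and an intact FLOWERING LOCUS C (FLC), and fri(Col)-flc-3 has the same FRI allele with an FLC deletion. FRI(Sf-2)-FLC(Col) carries an active FRI allele brought in from accession Sf-2 together with intact FLC, and FRI(Sf-2)-flc-3 has that FRI allele with the FLC deletion. Active FRI raises FLC, which represses flowering. An introgression also brings in accession Sf-2 sequence around FRI, and the labels do not give its extent, the number of plants per array or the hour of harvest. No plants were kept in short days after day 0, so the effect of long days cannot be told apart from that of age or of the harvest occasion.

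There was 1 array per genotype and day and hence no replicate within a group. Genotype comparisons rest on 3 arrays per genotype and day comparisons on 4 arrays per day. Each standard error (SE) rests on the spread left by a limma model additive in genotype and day, drawn toward a trend over all tested probe sets. For the day 4 response of FRI(Sf-2)-FLC(Col) against the others, a second model with separate day terms for that genotype was used instead. Both models were fitted to 6185 probe sets with mean log2 values above 3.56. Of the 25 members 22 passed this filter. UGT71B5, UGT73C2 and UGT84B1 did not and were not tested; the nearest to the limit were UGT71B5 below it, with a mean of 3.35, and UGT73B1 above it, with a mean of 3.67. "Called" means a Benjamini-Hochberg adjusted p under 0.05 over the 6185 probe sets. The FRI(Sf-2)-flc-3 day 2 array stood apart in its spiked BioB controls, with a mean of 7.41 against 5.69 to 6.18 on the other 11 arrays, and in residual spread, 0.165 against 0.0969 to 0.132. Of 33 marker genes listed for meristem, epidermis, green leaf, root and pollen, 3 had a probe set of their own and none of these was a meristem or epidermis marker, so the tissue label could not be checked. The leaf marker RCA (Rubisco activase), whose probe set has a suffix for shared probes, was 0.14 ± 0.106 from day 0 on day 2. Between these days it went from 11.03 to 10.68 in fri(Col)-FLC(Col) and rose in the other 3 genotypes. RCA fell by 0.47 ± 0.106 from day 2 to day 4 (limma adjusted p = 0.0301) and was -0.33 ± 0.106 from day 0 on day 4 (adjusted p = 0.0511). Its part in the changes given below was not tested. In whole apices a fall can mean fewer cells of a type or less RNA per cell, and these cannot be told apart.

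**Figure D1:**
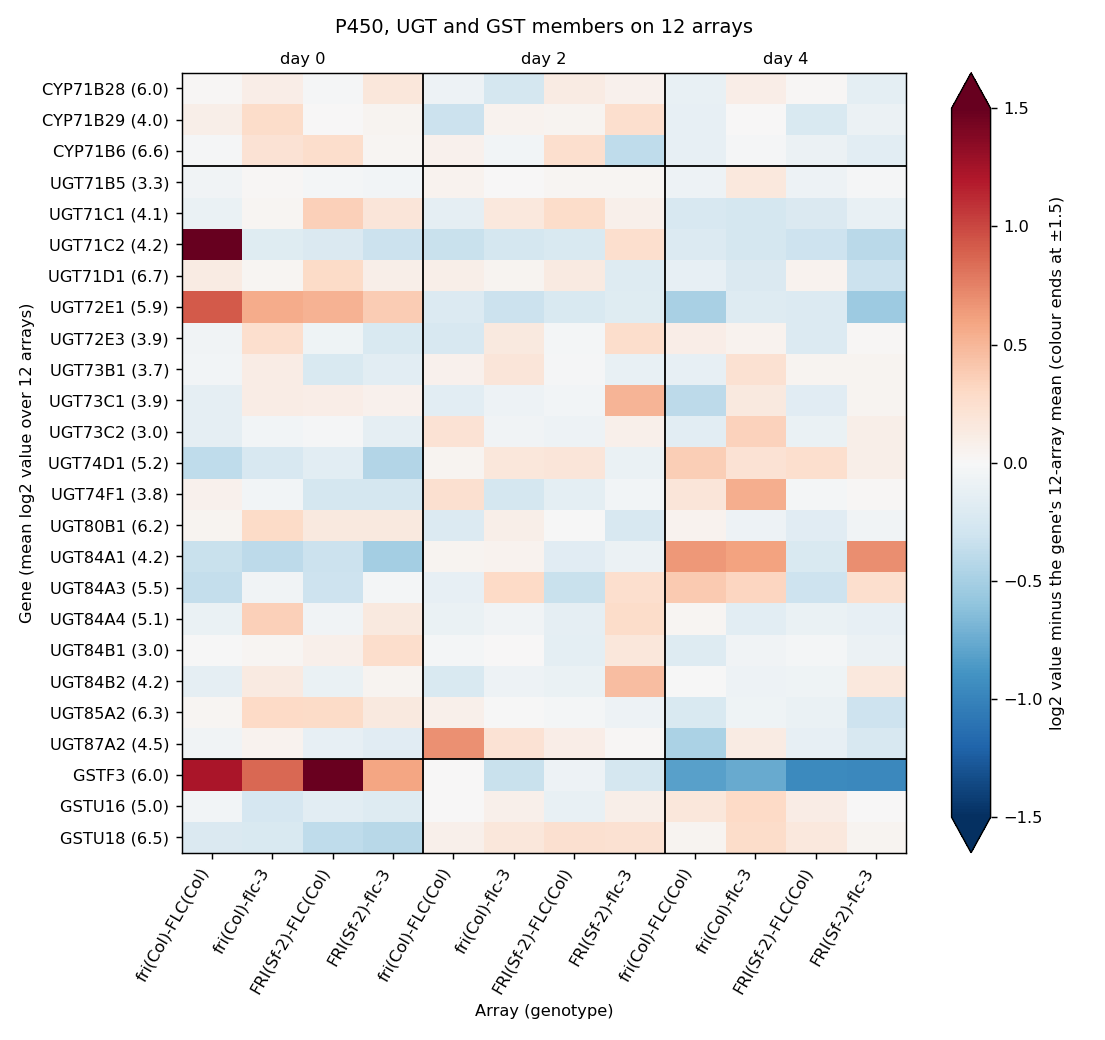
Deviation of each log2 value from that gene's own mean over 12 arrays (colour, ending at ±1.5), with genes in rows (12-array mean in brackets) and arrays in columns ordered by day and genotype. GSTF3 and UGT72E1 were high on the 4 day 0 arrays, and UGT71C2 was high on 1 array, fri(Col)-FLC(Col) on day 0.

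After 4 long days 10 of the 22 tested members were called, 5 higher and 5 lower, or 45.5% against 18.3% of all 6185 probe sets (8.78% higher and 9.49% lower). GSTF3 fell most, by 1.91 on the log2 scale (3.77-fold), and UGT72E1 fell 1.94-fold. UGT84A1 rose 1.77-fold and UGT74D1 1.45-fold. By superfamily, 3 UGTs rose and 4 fell of 16, 2 GSTs rose and 1 fell of 3, and 0 of 3 P450s were called in limma, with 1 of the 3 at an unadjusted p under 0.05, as were 31.3% of all probe sets. The median day 4 minus day 0 difference of the 22 was -0.12, beside 0.04 over all probe sets. Their median absolute difference was 0.297, beside 0.137 over all. On 8 of the 22 members (36.4%) the 4 day 4 arrays lay wholly above or wholly below the 4 day 0 arrays, against 25.8% of all probe sets.

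On day 2 the count was 4 of 22, or 18.2% against 10.7% of all probe sets (4.8% higher and 5.89% lower). GSTU18 and UGT74D1 had risen, and GSTF3 and UGT72E1 had fallen. The days did not overlap for 5 members (22.7%, against 14.9% of all probe sets): these 4 and UGT84A1. Between day 2 and day 4 only GSTF3 was called, 1 of 22 or 4.55% against 4.35% of all probe sets, a share near the background (2.72% of all probe sets were called lower). GSTF3 was also the 1 member of 22 whose days did not overlap there, against 9.7% of all probe sets. Without the FRI(Sf-2)-flc-3 day 2 array the counts were again 4 at day 2, 10 at day 4 and 1 between them, with the same genes. More of all probe sets were called without that array at day 2 and at day 4, and fewer between them. The excess of members over all probe sets was therefore smaller at day 2 and day 4 than in the main run. UGT84A1 joined the day 2 calls without the FRI(Sf-2)-FLC(Col) day 0 or day 4 array.

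**Figure D2:**
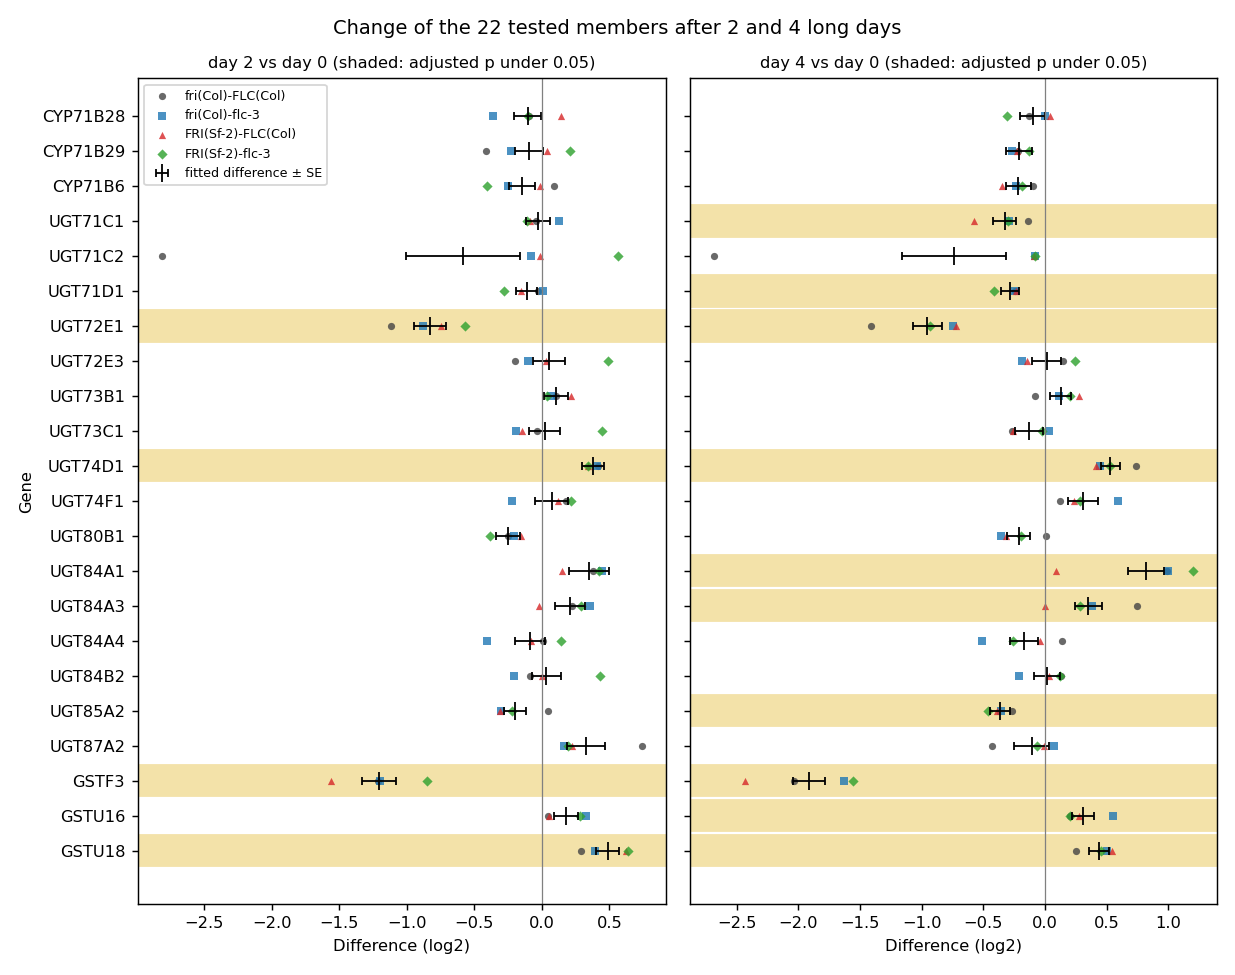
Difference from day 0 (log2, x axis) after 2 days (left) and 4 days (right) for the 22 tested genes (y axis). Symbols are single genotypes, black bars the fitted difference ± SE, and shading an adjusted p under 0.05: 4 genes are shaded at day 2 and 10 at day 4.

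GSTF3 is a phi-class glutathione transferase, a cytosolic enzyme class that also binds small molecules without converting them. Its probe set has a suffix that marks probes shared by a gene family, so transcripts of closely related GSTF genes may add to its signal. Values below are in the order fri(Col)-FLC(Col), fri(Col)-flc-3, FRI(Sf-2)-FLC(Col) and FRI(Sf-2)-flc-3. GSTF3 (AT2G02930) measured 7.20, 6.84, 7.46 and 6.56 (log2) on day 0. Day 2 gave 5.99, 5.65, 5.90 and 5.71. Day 4 gave 5.16, 5.21, 5.02 and 5.01. No 2 days overlapped, and the spread over genotypes narrowed from an SD of 0.392 on day 0 to 0.157 on day 2 and 0.103 on day 4 (n = 4 genotypes). The fitted fall was 1.21 ± 0.129 by day 2 (limma adjusted p = 0.00012) and 1.91 ± 0.129 by day 4 (adjusted p = 1.16e-06), in 4 of 4 genotypes each. From day 2 to day 4 it fell by 0.71 ± 0.129 (adjusted p = 0.0117). This last call was lost without the fri(Col)-FLC(Col) day 4 array, where the difference was -0.67 and the adjusted p 0.0505.

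Both tau-class enzymes had risen by day 4. GSTU18 (AT1G10360) measured 6.30, 6.29, 6.14 and 6.11 on day 0. On day 2 it measured 6.59, 6.69, 6.76 and 6.75, and the day 4 values were 6.56, 6.79, 6.68 and 6.56. All 8 later arrays lay above all 4 day 0 arrays, with a rise of 0.49 ± 0.0846 at day 2 (limma adjusted p = 0.00336) and 0.44 ± 0.0846 at day 4 (adjusted p = 0.00314), and a difference of -0.05 ± 0.0846 from day 2 to day 4 (95% interval -0.23 to 0.14). GSTU16 (AT1G59700) measured 4.97, 4.75, 4.85 and 4.81 on day 0. On day 2 the values were 5.02, 5.08, 4.90 and 5.10, and the day 4 values were 5.18, 5.31, 5.12 and 5.01. Day 4 lay wholly above day 0 for GSTU16 too, by a smaller margin, with a fitted rise of 0.31 ± 0.0877 (adjusted p = 0.0284). That call was lost when any 1 of 6 arrays was left out (fri(Col)-FLC(Col) day 4, fri(Col)-flc-3 day 0 or day 4, FRI(Sf-2)-FLC(Col) day 0 or day 4, or FRI(Sf-2)-flc-3 day 0), with adjusted p-values of 0.0526 to 0.126 and rises of 0.24 to 0.34. The GSTF3 and GSTU18 calls held in all 19 alternative settings on both days.

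Glutathione is oxidised in use and recycled by glutathione reductase. Of 58 genes listed for glutathione recycling, P450 partners and conjugate transporters, phenylpropanoids, jasmonate and P450, UGT or GST genes known by other names, 4 had a probe set of their own. GR1, a glutathione reductase, rose by 0.44 ± 0.0737 at day 2 (limma adjusted p = 0.00284) and was 0.23 ± 0.0737 above day 0 at day 4 (adjusted p = 0.0494). GR, the other reductase on the array, whose probe set has a suffix for shared probes, had fitted differences of 0.32 ± 0.161 and 0.18 ± 0.161 without a call. It measured 7.68 in fri(Col)-flc-3 on day 0 and 8.27 to 8.67 on all other arrays. From day 0 to day 4 GR went from 7.68 to 8.62 in that genotype. It went from 8.34 to 8.30 in fri(Col)-FLC(Col), from 8.48 to 8.36 in FRI(Sf-2)-FLC(Col) and from 8.39 to 8.34 in FRI(Sf-2)-flc-3. DFR, an enzyme of anthocyanin synthesis, rose by 0.79 ± 0.18 at day 2 (adjusted p = 0.0145) and was not called at day 4 (0.36 ± 0.18, adjusted p = 0.2). From day 0 to day 4 DFR went from 5.30 to 5.94 in fri(Col)-FLC(Col) and from 5.52 to 6.20 in FRI(Sf-2)-FLC(Col). It went from 5.39 to 5.37 in fri(Col)-flc-3 and from 5.07 to 5.20 in FRI(Sf-2)-flc-3. BAN, anthocyanidin reductase, had a mean of 2.67, below the filter.

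**Figure D3:**
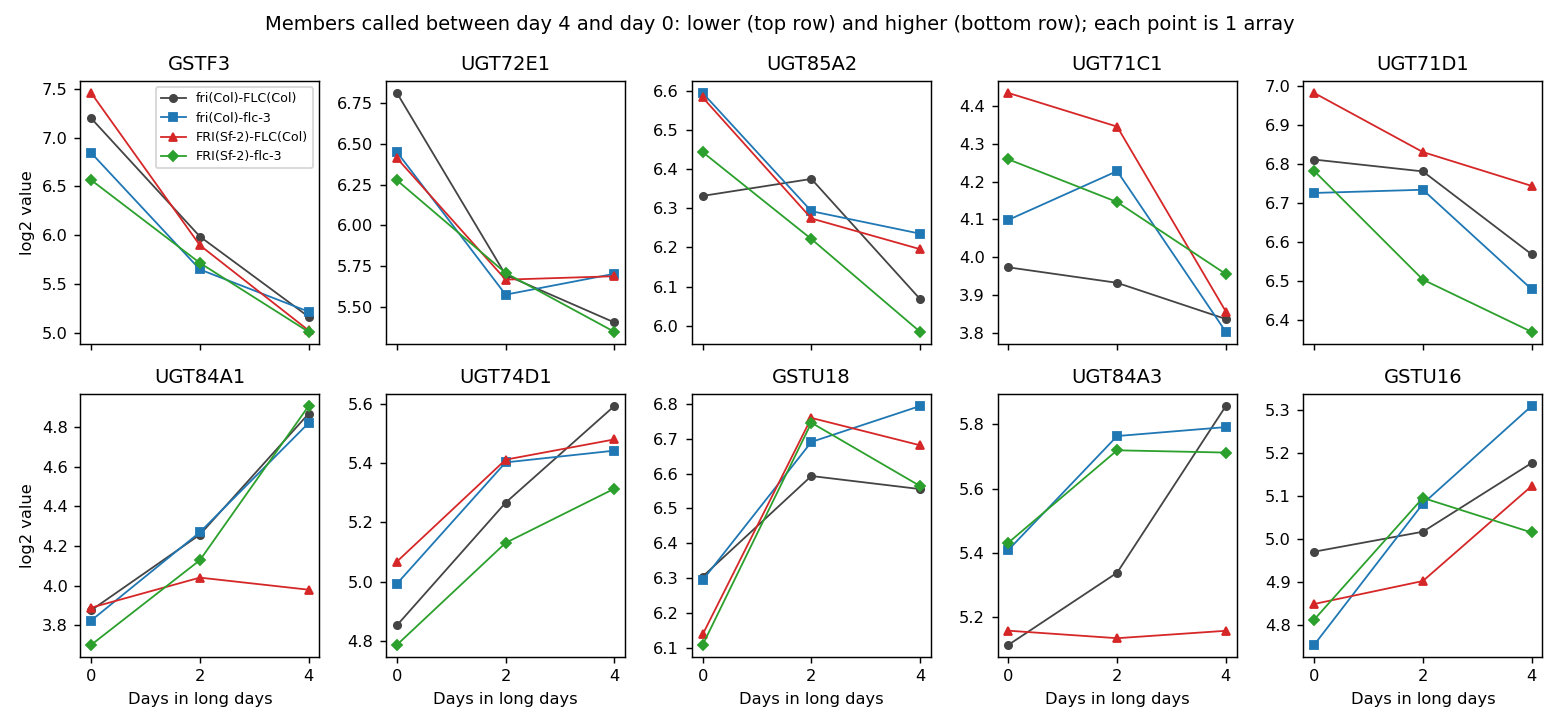
Log2 value (y axis, its own scale in each panel) against days in long days (x axis) for the 10 members called at day 4, 1 line per genotype and 1 array per point. In FRI(Sf-2)-FLC(Col) UGT84A1 was 0.09 and UGT84A3 -0.00 from day 0 on day 4, and GSTF3 was lower in all 4 genotypes.

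Of the glucosyltransferases of phenylpropanoids, UGT72E1 fell and UGT72E3 was not called, while UGT84A1 and UGT84A3 rose and UGT84A4 was not called, beside 9.49% of all probe sets called lower and 8.78% higher at day 4. Family 72E enzymes glucosylate monolignols and their aldehydes, the building blocks of lignin and lignans. UGT72E1 (AT3G50740), active on coniferyl and sinapyl aldehyde, measured 6.81, 6.45, 6.41 and 6.28 on day 0. On day 2 it measured 5.70, 5.57, 5.67 and 5.71, and the day 4 values were 5.40, 5.70, 5.69 and 5.35. The days 0 and 2 did not overlap, nor did days 0 and 4, and the difference from day 2 to day 4 was -0.13 ± 0.116 (95% interval -0.38 to 0.13). UGT72E1 fell by 0.83 ± 0.116 by day 2 (limma adjusted p = 0.000753) and by 0.95 ± 0.116 by day 4 (adjusted p = 0.000132), in 4 of 4 genotypes, and both calls held in all 19 alternative settings. Its relative UGT72E3, which acts on monolignol alcohols, had a mean of 3.89, near the filter, and a day 4 difference of 0.01 ± 0.118 (95% interval -0.25 to 0.27).

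UGT84A enzymes make glucose esters of hydroxycinnamic acids such as sinapate and p-coumarate. UGT84A1, UGT84A3 and UGT84A4 lie side by side on chromosome 4 with no other coding gene between them. UGT84A1 (AT4G15480), with a mean of 4.21 over 12 arrays, measured 3.88, 3.82, 3.89 and 3.70 on day 0. These day 0 values lay not far above the filter level of 3.56. The day 2 values were 4.26, 4.27, 4.04 and 4.13, and the day 4 values were 4.87, 4.82, 3.98 and 4.91. All day 4 arrays lay above all day 0 arrays, but the FRI(Sf-2)-FLC(Col) array only just, at 3.98 against a highest day 0 value of 3.89, while the other 3 genotypes reached 4.82 to 4.91. The fitted rise at day 4 was 0.82 ± 0.148 (limma adjusted p = 0.00208) and held in all 18 alternative settings. By genotype the day 4 minus day 0 difference was 0.09 in FRI(Sf-2)-FLC(Col) and 0.99 to 1.20 in the other 3. The day 4 response of FRI(Sf-2)-FLC(Col) differed from the mean response of the other 3 by -0.97 ± 0.210 in the model with its own day terms, with a 95% interval of -1.44 to -0.51. Its unadjusted p was 0.000839 but the limma adjusted p was 0.472, so it was not called. The adjusted p ranged from 0.0687 to 1 over 16 alternatives.

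UGT84A3 (AT4G15490) has the same kind of activity. On day 0 it measured 5.11, 5.41, 5.16 and 5.43. On day 2 the values were 5.34, 5.76, 5.13 and 5.72, and the day 4 values were 5.86, 5.79, 5.16 and 5.71. In FRI(Sf-2)-FLC(Col) the 3 values were nearly level, and the 2 genotypes without FLC were higher than both genotypes with FLC on days 0 and 2. The fitted rise at day 4, 0.35 ± 0.111, had an adjusted p of 0.0469, close to the threshold, with a rise in 3 of 4 genotypes. It was lost in 10 of 19 alternatives, 2 of which kept all arrays: quantile normalization (adjusted p = 0.0592) and no filter (adjusted p = 0.0602). The others left out 1 of the arrays fri(Col)-FLC(Col) day 0 or day 4, fri(Col)-flc-3 day 0, 2 or 4, FRI(Sf-2)-FLC(Col) day 2, or FRI(Sf-2)-flc-3 day 0 or day 4, with adjusted p-values of 0.0529 to 0.178 and rises from 0.22, without fri(Col)-FLC(Col) day 4, to 0.39. The response of FRI(Sf-2)-FLC(Col) differed from that of the others by -0.47 ± 0.244 (95% interval -1.01 to 0.07, adjusted p = 1). UGT84A4, the next gene in the row, measured 4.90 to 5.42 on the 12 arrays with no call, and a day 4 difference of -0.17 ± 0.112.

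**Figure D4:**
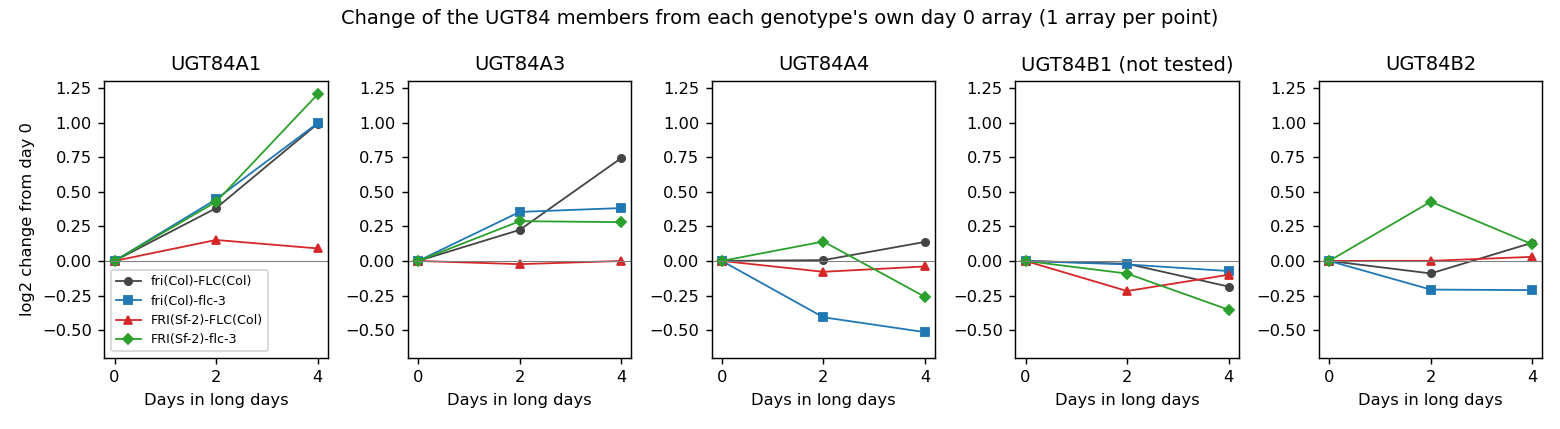
Change from each genotype's own day 0 array (log2, y axis) against days in long days (x axis) for the 5 UGT84 members, 1 array per point. At day 4 UGT84A1 was 0.99 to 1.20 above day 0 in 3 genotypes and 0.09 above it in FRI(Sf-2)-FLC(Col).

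Several members conjugate hormones. UGT74D1 glucosylates the auxin indole-3-acetic acid and its oxidised form, a step of auxin inactivation. UGT74D1 (AT2G31750) measured 4.85, 4.99, 5.07 and 4.79 on day 0. Day 2 values were 5.27, 5.40, 5.41 and 5.13, and the day 4 values were 5.59, 5.44, 5.48 and 5.31. The later days lay wholly above day 0, and the rise was 0.38 ± 0.0795 at day 2 (limma adjusted p = 0.00934) and 0.53 ± 0.0795 at day 4 (adjusted p = 0.000584). Both calls held in all 18 alternatives. UGT84B1, which makes the glucose ester of the same auxin, lay below the filter at 2.81 to 3.26, and its neighbour UGT84B2 had a day 4 difference of 0.02 ± 0.106 (95% interval -0.21 to 0.25). UGT74F1, which glucosylates salicylic acid, measured 3.52 to 4.34. Its day 4 difference was 0.31 ± 0.123, positive in 4 of 4 genotypes and not called (limma adjusted p = 0.108), except without the fri(Col)-flc-3 day 2 array. UGT73C1, active on cytokinins in vitro, measured 3.47 to 4.37, highest on the FRI(Sf-2)-flc-3 day 2 array, and had no call (day 4 difference -0.13 ± 0.116). Its neighbour UGT73C2 and UGT71B5 lay below the filter at 2.85 to 3.35 and 3.27 to 3.50.

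UGT87A2 has been linked to flowering time: loss of the gene delays flowering and raises FLC, as published for Arabidopsis. Here UGT87A2 (AT2G30140) measured 4.49, 4.59, 4.42 and 4.37 on day 0. On day 2 it measured 5.23, 4.75, 4.64 and 4.56, and the day 4 values were 4.06, 4.66, 4.41 and 4.30. The highest value was that of fri(Col)-FLC(Col) on day 2 and the lowest that of the same genotype on day 4. This gene's values at day 2 were singled out after they were seen. The days overlapped, and the differences of 0.33 ± 0.142 at day 2 (limma adjusted p = 0.178) and -0.11 ± 0.142 at day 4 (adjusted p = 0.661) were not called. Without the fri(Col)-FLC(Col) day 2 array the day 2 difference was 0.14 (adjusted p = 0.51). The effect of FLC on UGT87A2 was 0.08 ± 0.164 with active FRI (95% interval -0.27 to 0.44) and -0.08 ± 0.164 with inactive FRI (95% interval -0.44 to 0.28). The single-day differences were 0.06 to 0.11 with active FRI. With inactive FRI they ran from -0.60 on day 4 to 0.47 on day 2, so that value joins days of opposite sign.

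Several family 71 enzymes glycosylate phenolic compounds in vitro. UGT71D1, UGT71C2 and UGT71C1 lie close together on chromosome 2, with 1 coding gene between UGT71D1 and UGT71C2 and none between the others. UGT71C1 (AT2G29750) measured 3.97, 4.10, 4.43 and 4.26 on day 0. On day 2 the values were 3.93, 4.23, 4.35 and 4.15, and the day 4 values were 3.84, 3.80, 3.86 and 3.96. Day 4 lay wholly below day 0, but the margin was narrow, with 3.96 in FRI(Sf-2)-flc-3 on day 4 against 3.97 in fri(Col)-FLC(Col) on day 0, and the fitted change was -0.33 ± 0.0922 (limma adjusted p = 0.0274). UGT71D1 (AT2G29730) measured 6.81, 6.73, 6.98 and 6.78 on day 0. On day 2 the values were 6.78, 6.73, 6.83 and 6.50, and the day 4 values were 6.57, 6.48, 6.74 and 6.37. Each genotype was lower on day 4 than on day 0 but the 2 days overlapped by the FRI(Sf-2)-FLC(Col) day 4 array, and the fitted change was -0.28 ± 0.0767 (adjusted p = 0.0224).

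Both of these calls were lost without certain single arrays. UGT71C1 lost its call without fri(Col)-FLC(Col) day 0, fri(Col)-flc-3 day 4, FRI(Sf-2)-FLC(Col) day 0 or day 4, or FRI(Sf-2)-flc-3 day 0 or day 4 (differences of -0.36 to -0.26, adjusted p-values of 0.0509 to 0.111) and with quantile normalization (adjusted p = 0.051). UGT71D1 lost its call without fri(Col)-FLC(Col) day 4, fri(Col)-flc-3 day 4, FRI(Sf-2)-FLC(Col) day 0, or FRI(Sf-2)-flc-3 day 0 or day 4, with differences of -0.29 to -0.24 and adjusted p-values of 0.0609 to 0.0883. UGT71C2 (AT2G29740), which lies between them, measured 6.72 in fri(Col)-FLC(Col) on day 0 and 3.84 to 4.49 on the other 11 arrays. Its fitted day 4 change of -0.74 ± 0.421 (adjusted p = 0.262) was -0.04 without that array (adjusted p = 0.901). On that array its neighbours were at 3.97 for UGT71C1, within that gene's range of 3.80 to 4.43, and 6.81 for UGT71D1, within 6.37 to 6.98.

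Among the remaining UGTs, UGT85A2 (AT1G22360) measured 6.33, 6.60, 6.58 and 6.44 on day 0. Its day 2 values were 6.38, 6.29, 6.27 and 6.22, and the day 4 values were 6.07, 6.24, 6.20 and 5.98. Day 4 lay wholly below day 0, a fall of 0.37 ± 0.0816 (limma adjusted p = 0.00742) that was called in all 19 alternatives. UGT80B1, a sterol glucosyltransferase, measured 5.97 to 6.50. It was -0.25 ± 0.0905 from day 0 at day 2 and -0.21 ± 0.0905 at day 4, with no call (adjusted p = 0.108 and 0.129). UGT73B1 measured 3.44 to 3.90 without a call.

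No P450 was called on either day. The day 4 differences were -0.10 ± 0.100 for CYP71B28, -0.21 ± 0.105 for CYP71B29 and -0.22 ± 0.0985 for CYP71B6. CYP71B6, whose probe set also has a suffix for shared probes, converts indole-3-acetonitrile, an intermediate of indole metabolism. It measured 6.21 to 6.86, lowest on the FRI(Sf-2)-flc-3 day 2 array, and was lower on day 4 than on day 0 in 4 of 4 genotypes, with a limma adjusted p of 0.159. CYP71B28 and CYP71B29 are neighbours on chromosome 1 and measured 5.75 to 6.18 and 3.72 to 4.32.

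The genotype comparisons asked how active FRI and intact FLC change these families in the apex. In limma 0 of 22 members were called in any of the 7 comparisons. The shares of all probe sets called were 0.76% for the contrast of FRI(Sf-2)-FLC(Col) with the mean of the rest, 0.146% and 0.0162% for the FLC effect with active and inactive FRI, 0.178% and 0.0808% for the FRI effect with and without FLC, 0.0323% for the interaction and 0.0162% for the day 4 response of FRI(Sf-2)-FLC(Col) against the others. At an unadjusted p under 0.05 the contrast of FRI(Sf-2)-FLC(Col) with the rest held 3 of 22 members (13.6%) against 10.7% of all probe sets. The FLC effect with active FRI held 6 members (27.3% against 11.8%) and that with inactive FRI 1 (4.55% against 2.47%). The FRI effect held 2 members with FLC (9.09% against 6.87%) and 2 without it (9.09% against 8.99%). The interaction held 2 (9.09% against 7.26%), and so did the day 4 response (9.09% against 1.92%).

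The largest differences of FRI(Sf-2)-FLC(Col) from the other 3 genotypes were in UGT84A3, UGT71C2 and UGT84A1. UGT84A3 had a mean over days of 5.15 in FRI(Sf-2)-FLC(Col) against 5.44, 5.66 and 5.62 in fri(Col)-FLC(Col), fri(Col)-flc-3 and FRI(Sf-2)-flc-3, a fitted difference of -0.42 ± 0.105 with a 95% interval of -0.65 to -0.19. It was lower on 3 of 3 days, but the limma adjusted p was 0.109, and 0.069 to 0.548 over 19 alternatives. UGT84A1 differed by -0.32 ± 0.139 (adjusted p = 0.416), but by -0.04 without the FRI(Sf-2)-FLC(Col) day 4 array and -0.53 without its day 0 array. UGT71C2 differed by -0.34 ± 0.397 (adjusted p = 0.816). This value became -0.07 without the FRI(Sf-2)-FLC(Col) day 0 array. It also turned on the fri(Col)-FLC(Col) day 0 array, as did the UGT71C2 values of 0.88 for the FLC effect with inactive FRI, -0.90 for the FRI effect with FLC and -0.98 for the interaction. Without that array these 4 values were -0.03, -0.05, 0.03 and -0.05.

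With active FRI, intact FLC went with differences of -0.47 ± 0.129 in UGT84A3, 0.36 ± 0.149 in GSTF3 and 0.32 ± 0.114 in CYP71B6, the 3 largest by size. Their limma adjusted p-values were 0.178, 0.364 and 0.311, and each had its sign on 3 of 3 days. Single arrays moved 2 of these values by over 1.5 times: GSTF3 was at 0.17 without the FRI(Sf-2)-FLC(Col) day 0 array and 0.20 without the FRI(Sf-2)-flc-3 day 0 array, and CYP71B6 at 0.19 without the FRI(Sf-2)-flc-3 day 2 array. The other members at an unadjusted p under 0.05 were UGT84B2 (-0.31 ± 0.123), UGT71D1 (0.30 ± 0.0886) and UGT74D1 (0.24 ± 0.0918). They too had the same sign on 3 of 3 days, with limma adjusted p-values of 0.348, 0.218 and 0.328. With inactive FRI the FLC effect was -0.29 ± 0.133 for UGT73C1 and -0.23 ± 0.121 for CYP71B29 (adjusted p = 1 for both). UGT73C1 was at -0.17 without the fri(Col)-flc-3 day 4 array and CYP71B29 at -0.09 without the fri(Col)-FLC(Col) day 2 array. The FRI effect with FLC was -0.36 ± 0.170 for UGT84A1 and -0.31 ± 0.142 for UGT74F1 (adjusted p = 0.735 and 0.723). The members at an unadjusted p under 0.05 there were UGT71C1, at 0.30 ± 0.106, and UGT84A3, at -0.29 ± 0.129 (limma adjusted p = 0.552 and 0.706). The UGT84A1 value was -0.08 without the FRI(Sf-2)-FLC(Col) day 4 array and -0.57 without its day 0 array. Without FLC the FRI effect was -0.26 ± 0.164 for UGT87A2, -0.25 ± 0.100 for UGT73B1 and 0.23 ± 0.123 for UGT84B2, with adjusted p-values of 0.675, 0.488 and 0.61. UGT84B2 was at 0.08 without the FRI(Sf-2)-flc-3 day 2 array and 0.07 with array weights, and UGT87A2 at -0.14 without the fri(Col)-flc-3 day 4 array. CYP71B6 had an interaction of 0.40 ± 0.161 and UGT84A1 one of -0.30 ± 0.241 (adjusted p = 0.685 and 0.854). The UGT84A1 interaction was -0.02 without the FRI(Sf-2)-FLC(Col) day 4 array, -0.15 without the FRI(Sf-2)-flc-3 day 4 array and -0.51 without the FRI(Sf-2)-FLC(Col) day 0 array. The day 4 minus day 0 difference of GSTF3 was -2.44 in FRI(Sf-2)-FLC(Col) and -2.04 to -1.56 in the other 3 genotypes. The difference between these responses was -0.70 ± 0.244, not called (adjusted p = 1).

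**Figure D5:**
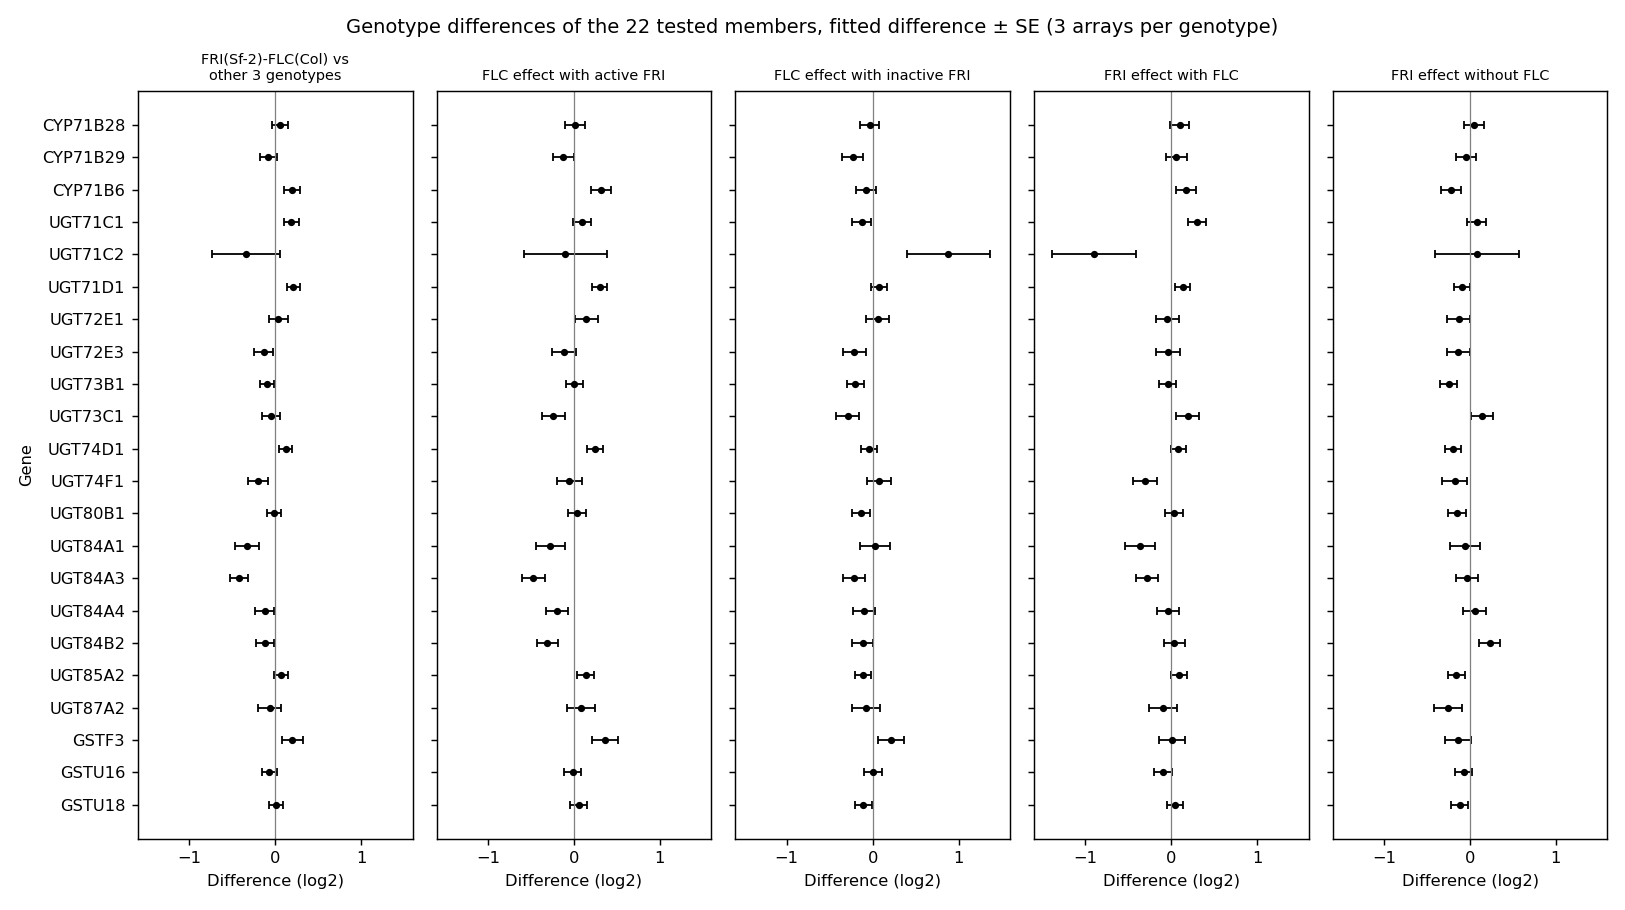
Fitted genotype differences ± SE (log2, x axis) of the 22 tested genes (y axis) in 5 comparisons, 3 arrays per genotype. No difference shown has an adjusted p under 0.05; UGT71C2 has the widest bars, with an SE of 0.40 in the first panel and 0.49 in the others.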

How the data were processed

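The authors' deposited table holds log2 values of 8297 probe sets on 12 arrays; 50 control probe sets were left out. That the values are log2 was inferred from their range (2.12 to 13.18). The sources used here do not give the authors' software or normalization. Array medians differed by at most 0.06, and no further scaling was applied. One array per group limits the precision. Groups came from sample titles. By the platform annotation 3794 probe sets pair with 1 gene, 70 with more than 1 and 4383 with no gene; all 25 members matched RefSeq (assembly TAIR10.1), used for gene order.

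The models used limma 3.58.1 (R 4.3.3; trended eBayes, two-sided) on probe sets whose mean exceeded the 25th percentile (3.56). The additive model left 6 residual degrees of freedom plus 5.93 from the prior; a second one, with separate day terms for FRI(Sf-2)-FLC(Col), left 4 plus 6.36. P-values were adjusted (Benjamini-Hochberg) within each of 10 comparisons. The code was tested on simulated data. Alternatives were other scalings, filters, variance priors, array weights, fits to the 6 arrays of a genotype pair, and leaving out each array.

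The rule for named genes takes called members, the largest day 4 difference per family, the 3 largest differences per genotype comparison and called genes of the 5 pathway lists. Members and lists were chosen with earlier results of these data known. Chosen after the values were seen were the day 2 values of UGT87A2, the values of members outside the rule, the counts of days that do not overlap, the intervals, the alternatives for members that were not called, and the search for single arrays that stand apart within a day. A planned promoter motif search was not run.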

Additional observations from a re-analysis of the deposited data

Results flagged for a closer look

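Each labelled group holds 1 array, so the search for arrays that stand apart was made over the 4 arrays of a day, which are 4 genotypes and not replicates; this was decided after the levels had been seen. In 3 of 75 such sets the gap between the highest or lowest array and its neighbour exceeded Dixon's critical share of the range, and chance flags about 1 in 20. UGT71C2 measured 6.72 in fri(Col)-FLC(Col) on day 0, against 3.93 to 4.06 in the other genotypes. UGT71C2 also measured 4.49 in FRI(Sf-2)-flc-3 on day 2, against 3.91 to 4.01, on the array whose BioB controls stood apart. UGT84A1 measured 3.98 in FRI(Sf-2)-FLC(Col) on day 4, against 4.82 to 4.91. Whether these are genotype differences or single-array deviations cannot be told apart with 1 array per group.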

How the results depend on the processing

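At day 2 the count of 4 called members became 3 with a filter at the 50th percentile of mean level, which left 9 members, and was 4 to 5 when 1 array was left out. At day 4 the count of 10 became 6 with that filter, and 6 to 10 when 1 array was left out, the lowest without the fri(Col)-flc-3 day 4 or the FRI(Sf-2)-flc-3 day 0 array. With the filter the share of tested members called was larger than in the main run on both days. The share of all probe sets called was larger too, but by less. Without either of these arrays fewer of all probe sets were also called at day 4, a smaller relative drop than that of the members. Between day 4 and day 2 the count of 1 ranged from 0, without the fri(Col)-FLC(Col) day 4 array, to 2, without the FRI(Sf-2)-FLC(Col) day 4 array, where UGT84A1 joined GSTF3. The 7 genotype comparisons had 0 called members in limma in each alternative run (0 to 0 when 1 array was left out). At day 4 the calls of UGT84A3, GSTU16, UGT71C1 and UGT71D1 were lost in 10 of 19, 6 of 18, 7 of 18 and 5 of 19 alternatives, and those of GSTF3, UGT72E1, UGT74D1, UGT85A2, UGT84A1 and GSTU18 in none. No called value changed sign. Uncalled values were followed only where the rule for named genes took them, and for UGT87A2 in the day comparisons. Sign changes of other uncalled values were not looked for. Of those followed, UGT87A2 at day 4 became 0.07 without the fri(Col)-FLC(Col) day 4 array. Without the fri(Col)-FLC(Col) day 0 array UGT71C2 became -0.05 for the FLC effect with inactive FRI and 0.03 for the FRI effect with FLC. Its day 4 response of FRI(Sf-2)-FLC(Col) became -0.08 without that array. Without the day 0 or the day 4 array of FRI(Sf-2)-FLC(Col), the day 4 response of that genotype could not be fitted. Genotype is already the block of the day comparisons, and day that of the genotype comparisons. Beyond that, by replicate number, no paired analysis was possible because each genotype and day has 1 array.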
